A study of Danio rerio with 8 samples.

Results

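The liver-made defence and clotting proteins of the blood were followed here in zebrafish larvae exposed to zinc, through 10 listed genes: complement components (cfb, c3a.1, c3a.2 and c9), the 3 fibrinogen chains (fga, fgb and fgg), serum amyloid A (saa), haptoglobin (hp) and the liver-expressed antimicrobial peptide leap2. Probes were assigned to these genes by the RefSeq accession that the array file gives for each probe. This gave 20 probes of 8 genes among 43603 zebrafish probes (13294 named genes), and c9 and hp, which matched no probe, were not analysed here. After probes that were dim in all groups had been set aside, 18 probes of 7 genes remained among 34616 tested. The 2 saa probes were the ones set aside.

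RNA came from whole bodies of zebrafish larvae at 96 h post-fertilization (hpf), and in the study's methods each RNA sample is a pool of larvae that were raised together, so that tissues are mixed and an array is 1 pool. The exposures compared were 3: ZnO nanoparticles (ZnO NPs) at 2.64 mg/L (3 arrays), ZnSO4, a soluble zinc salt, at 7.75 mg/L (3 arrays), and culture water with no added zinc (control, 2 arrays). Both zinc concentrations are those the labels call LC25, a concentration estimated to kill a set share of the embryos, and no strain or genotype is given in the sources used here. By their barcodes the 8 arrays shared 1 slide, and the barcode also gives each array a number, 1 or 2. This number is called the slide side here, and the sample labels do not say what it marks. The control arrays and ZnO NPs replicates 1 and 2 lay on one side, and ZnO NPs replicate 3 and the 3 ZnSO4 arrays lay on the other, so that no ZnSO4 array shared a side with a control array.

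In vertebrates the acute phase response is a change in what hepatocytes secrete when tissue is injured or infected. Cytokines such as interleukin 6 and interleukin 1 signal to the liver through Stat3 and NF-kB, and the liver then secretes more serum amyloid A, fibrinogen, haptoglobin and complement. C3 is the protein on which all complement routes converge, factor B (Cfb) supplies the protease that cleaves it in the alternative route, and C9 forms the pore that ends the cascade. Fibrinogen, built from an alpha, a beta and a gamma chain, is the soluble precursor of the fibrin clot. The zebrafish liver is formed and secretes plasma proteins by the larval stage studied here.

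Values are scaled signals, that is, the background-subtracted intensity of a probe after each array was shifted so that the 75th percentile of its zebrafish spots fell at 1160. They compare arrays for 1 probe and not probes with each other. Fold changes, their standard errors (SE) and p-values come from limma, which was fitted to the 3 groups jointly. To count as changed, a probe needed a fold of 1.5 or more together with an adjusted p (Benjamini-Hochberg, over all 34616 probes) under 0.05. In a mixed-tissue sample, fewer cells of a type and less RNA per cell cannot be told apart.

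None of the 18 probes changed in any comparison. Under ZnO NPs, 1 of 18 probes reached a mean fold of 1.5 against control, a c3a.2 probe whose value rested on a single control array. Another c3a.2 probe was at 1.34-fold. ZnO NPs replicate 1 was the lowest of the 8 arrays for 15 of 18 probes. Under ZnSO4, 8 of 18 probes read above both control arrays on every array and 0 below. In either direction this share (44.4%) was near that of all tested probes (39.1%). Of all 34616 tested probes, 6860 lay above control in this way and 6687 below, so that the 39.1% holds both directions. The 8 probes were both cfb probes, 1 of 3 c3a.2 probes and 3 of 4 c3a.1 probes, by 1.31-fold to 1.67-fold, and both fga probes, by 1.26-fold and 1.21-fold, all short of the adjusted threshold. Fibrinogen levels varied most within the ZnO NPs group itself, where replicate 1 had the lowest value of the 8 arrays for all 8 fibrinogen probes.

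**Figure D1:**
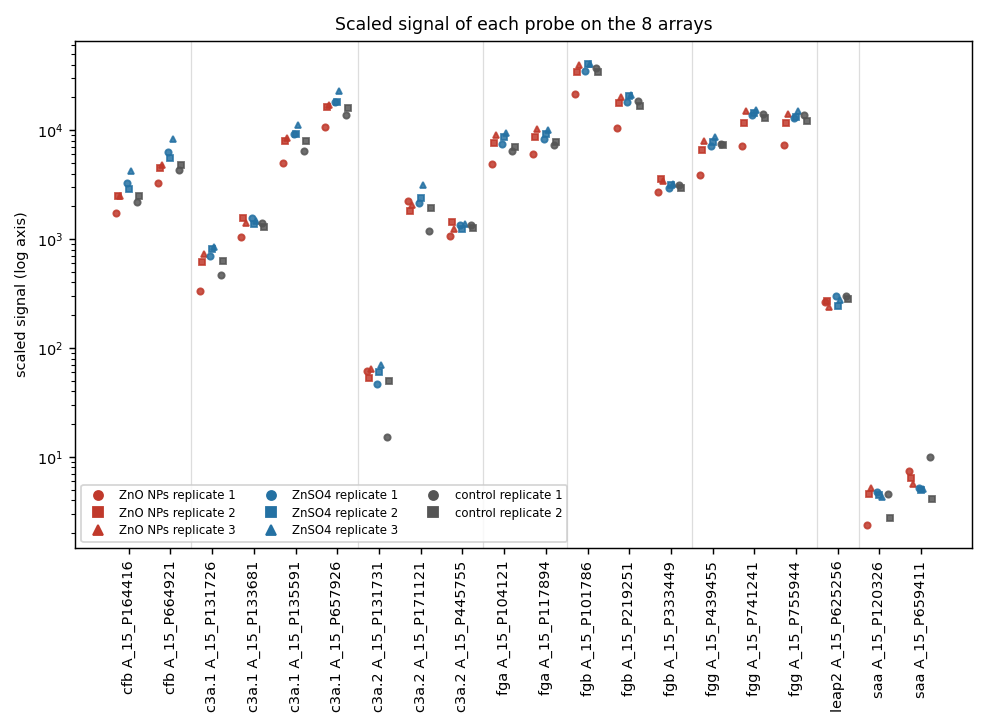
Scaled signal (log axis) of the 20 probes on each of the 8 arrays, with ZnO NPs in red, ZnSO4 in blue and control in grey, and 1 symbol per replicate number. The 2 saa probes lie between 2.37 and 9.93 on every array, and control replicate 1 lies far below the other 7 arrays for c3a.2 probe A_15_P131731.

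Against control, 0 of 18 probes changed under ZnO NPs, where 0.0433% of all tested probes did, 0 changed under ZnSO4, where 0.026% did, and 0 differed between ZnO NPs and ZnSO4, where 0% of all probes did. The smallest adjusted p among the 18 probes was 0.175 for ZnO NPs, 0.205 for ZnSO4 and 0.811 for ZnO NPs against ZnSO4 (limma). At the same fold but with p under 0.05 before adjustment, 1 probe was higher under ZnO NPs (5.56%, against 3.07% of all probes), 2 were higher under ZnSO4 (11.1%, against 2.39%), and 2 were lower under ZnO NPs than under ZnSO4 (11.1%, against 0.586%). These few probes belong to c3a.2 and cfb alone. None of the 18 passed in the opposite direction, and the shares of all probes count both directions. Whatever their fold, 1, 4 and 3 of the 18 probes had p under 0.05 before adjustment in these comparisons, against 25.1%, 18.3% and 5.64% of all tested probes.

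The direction of the 18 fold changes differed between exposures. The median log2 fold change was -0.07 for ZnO NPs against control, with 5 probes positive, and 0.23 for ZnSO4 against control, with 17 positive, beside 0.03 and 0.02 over all tested probes. ZnO NPs against ZnSO4 gave a median of -0.35, with 2 positive, beside 0.01 over all tested probes. The probes of 1 gene share their transcript and the comparisons against control share the 2 control arrays, so these counts are not of independent measurements. Groups that did not overlap numbered 2 for ZnO NPs against control (11.1%, where 41.9% of all probes did not overlap), 8 for ZnSO4 against control (44.4%, against 39.1%) and 4 for ZnO NPs against ZnSO4 (22.2%, against 14.4%). The first share was below that of all probes and the second was near it. The third was higher and rests on 4 probes of cfb and c3a.1. These shares count both directions. All 8 of the ZnSO4 probes lay above control, where 6860 of all tested probes lay above and 6687 below. The ZnSO4 median was -0.07 with slide side fitted as a block, with 8 probes positive, and the ZnO NPs median was 0.12 without ZnO NPs replicate 1, with 14 positive. Only ZnO NPs had arrays on both sides. The side block therefore takes the side difference from ZnO NPs replicate 3 against replicates 1 and 2. It cannot tell a side difference from any other difference among these arrays.

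**Figure D2:**
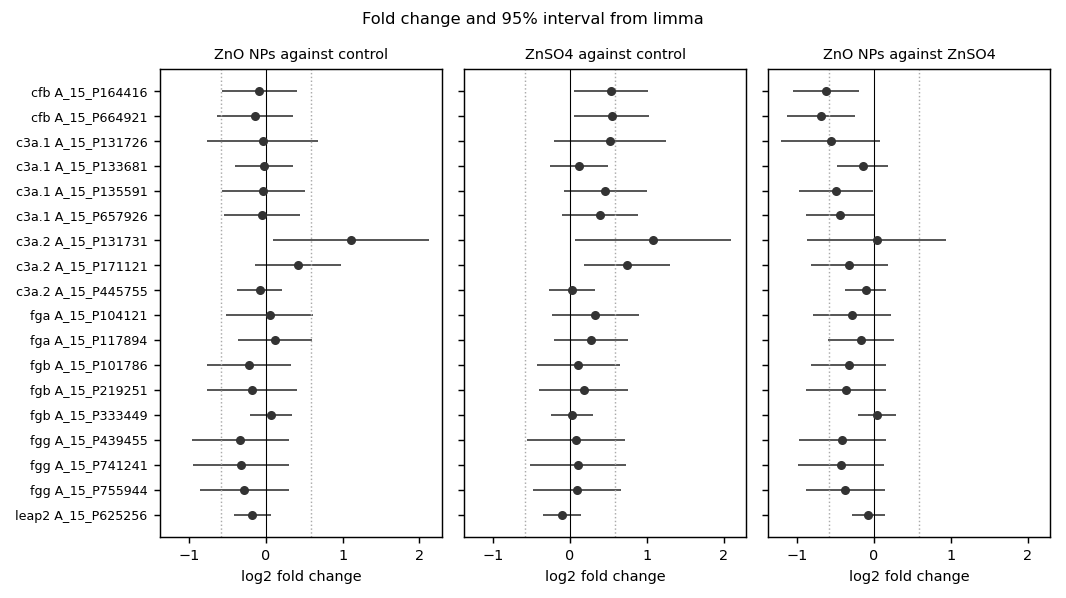
Log2 fold change and 95% interval from limma for the 18 tested probes in the 3 comparisons, with dotted lines at a fold of 1.5 in either direction. Under ZnSO4, 17 of 18 points lie right of 0, and for ZnO NPs against ZnSO4 2 of 18 do.

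Factor B was the member whose levels separated the 2 zinc exposures most. Probe A_15_P664921 of cfb had scaled signals of 3296, 4508 and 4744 under ZnO NPs, 6328, 5540 and 8382 under ZnSO4, and 4292 and 4836 in control. Every ZnSO4 array lay above every ZnO NPs and control array, while the ZnO NPs arrays overlapped the control arrays, with control replicate 2 above all of them. The group means were 4183 ± 777 under ZnO NPs, 6750 ± 1467 under ZnSO4 and 4564 ± 385 in control (SD, n = 3, 3 and 2). The log2 fold change was -0.14 (SE 0.21, adjusted p = 0.699, limma) for ZnO NPs against control and 0.55 (SE 0.21, adjusted p = 0.245; unadjusted p = 0.0338) for ZnSO4 against control.

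The other cfb probe, A_15_P164416, gave 1740, 2468 and 2506 under ZnO NPs, 3240, 2869 and 4211 under ZnSO4, and 2205 and 2479 in control. It ordered the arrays in nearly the same way, with a Pearson r of 0.997 to the first probe over the 8 arrays, and its log2 fold change was 0.54 for ZnSO4 against control (SE 0.21, adjusted p = 0.245, limma). ZnO NPs lay below ZnSO4 by 0.69 (SE 0.19) and 0.62 (SE 0.19) on the log2 scale for A_15_P664921 and A_15_P164416. Both had an adjusted p of 0.811, with unadjusted p-values of 0.00732 and 0.0112. With each array left out in turn, the log2 difference ran from -0.82 (without ZnSO4 replicate 2) to -0.52 (without ZnSO4 replicate 3) for A_15_P664921, and from -0.74 (without ZnSO4 replicate 2) to -0.45 (without ZnO NPs replicate 1) for A_15_P164416. Against control, the ZnSO4 values of the probes were 0.38 and 0.38 without ZnSO4 replicate 3, 0.68 and 0.66 without ZnSO4 replicate 2, and 0.25 and 0.26 with slide side fitted as a block. On the side that held both zinc exposures, ZnO NPs replicate 3 was 0.49 and 0.44 below the mean of the 3 ZnSO4 arrays on the log2 scale, with no test.

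C3 was read by probes of 2 neighbouring genes. RefSeq's table of the assembly GRCz12tu places c3a.1 and c3a.2 on 1 chromosome with 3 annotated genes between them, and c3a.3, a further C3 gene, directly beside c3a.2. Paralogs in such a cluster can be similar enough for a probe to bind transcripts of more than 1, and since no probe sequences were used here this was not tested. In teleosts, C3 exists in several copies whose products differ in the surfaces they bind.

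For c3a.1, probe A_15_P135591 had 5001, 8013 and 8530 under ZnO NPs, 9219, 9256 and 11189 under ZnSO4, and 6458 and 7897 in control. All 3 ZnSO4 arrays were above all others, and ZnO NPs replicate 1 was the lowest array. The log2 fold change was -0.03 for ZnO NPs against control (SE 0.23, adjusted p = 0.945) and 0.46 for ZnSO4 against control (SE 0.23, adjusted p = 0.327, limma). ZnO NPs were 0.49 below ZnSO4 on the log2 scale (SE 0.21, adjusted p = 0.811). Probe A_15_P657926 of c3a.1 read 10717, 16482 and 17021 under ZnO NPs, 18228, 18142 and 22873 under ZnSO4, and 13894 and 16076 in control, in the same pattern.

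Probe A_15_P131726 of c3a.1 had 335, 620 and 725 under ZnO NPs, 699, 811 and 853 under ZnSO4, and 472 and 632 in control. Here ZnSO4 lay above control but overlapped ZnO NPs. The remaining c3a.1 probe, A_15_P133681, stood apart from the other 3: it had 1047, 1561 and 1419 under ZnO NPs, 1550, 1382 and 1468 under ZnSO4, and 1393 and 1301 in control, with overlap in every comparison. Its log2 fold change was 0.12 for ZnSO4 against control (95% interval -0.25 to 0.50), where the other probes of the gene gave 0.39 to 0.52. With slide side fitted as a block, the ZnSO4 values of the 4 c3a.1 probes lay between -0.15 and 0.04.

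The probes of c3a.2 disagreed more. A_15_P171121 had 2226, 1804 and 2066 under ZnO NPs, 2135, 2399 and 3155 under ZnSO4, and 1176 and 1948 in control. ZnSO4 lay above both control arrays, ZnO NPs overlapped them, and control replicate 1 was the lowest array. Against control, ZnO NPs gave a log2 fold change of 0.42 (SE 0.24, adjusted p = 0.303) and ZnSO4 one of 0.74 (SE 0.24, adjusted p = 0.205; limma). ZnSO4 was 1.30-fold above control without control replicate 1 and 2.15-fold without control replicate 2.

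A dimmer c3a.2 probe, A_15_P131731, had 61.0, 53.4 and 63.9 under ZnO NPs, 46.7, 59.7 and 69.3 under ZnSO4, and 15.2 and 49.5 in control. Control replicate 1 is the array that stands apart, and it was not well above background for this probe there, while the other 7 arrays were. The log2 fold change of 1.11 for ZnO NPs (SE 0.44, adjusted p = 0.175) and of 1.08 for ZnSO4 (SE 0.44, adjusted p = 0.256) against control rested on that array. Without control replicate 1 the values were 0.26 and 0.22, and without control replicate 2 they were 1.97 (adjusted p = 0.0134) and 1.93 (adjusted p = 0.0138), each past the threshold in limma with 1 control array left. The scanner software marked control replicate 1 as out of range for the net signal of its negative control spots, 40.5 against 30.2 to 37.0 on the other arrays, and the part of this in the c3a.2 values was not tested.

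The third c3a.2 probe, A_15_P445755, showed neither pattern. It had 1059, 1441 and 1229 under ZnO NPs, 1360, 1248 and 1380 under ZnSO4, and 1334 and 1273 in control, and its log2 fold change for ZnSO4 against control was 0.03 (95% interval -0.27 to 0.32). Over the 8 arrays its Pearson r was 0.92 with c3a.1 probe A_15_P133681 and -0.12 with A_15_P171121 of its own gene. These correlations are over 8 arrays that share 3 groups and are a description only.

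**Figure D3:**
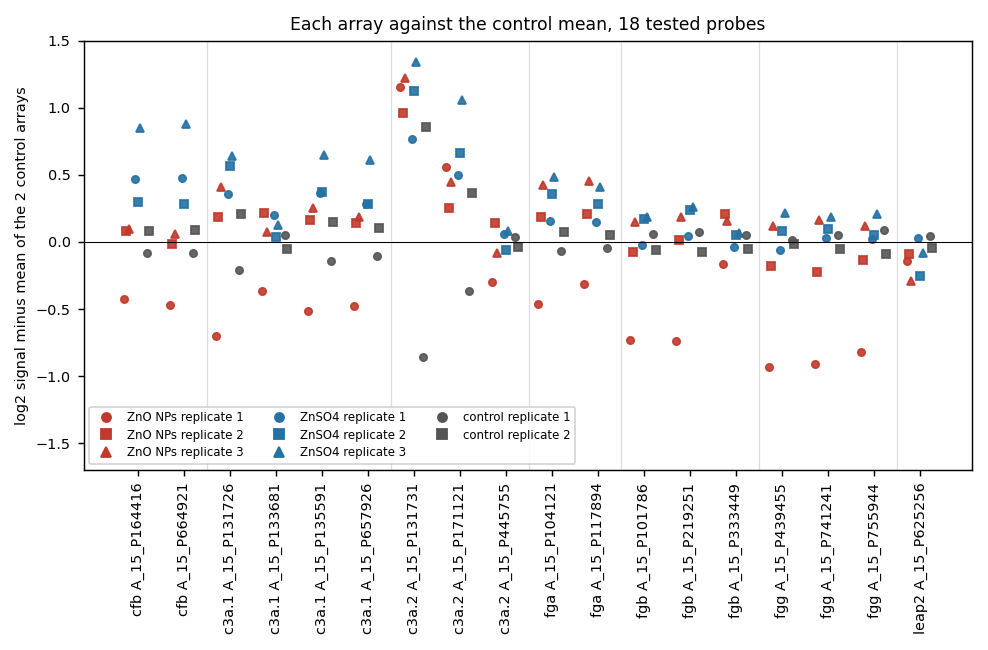
Log2 signal of each array minus the mean of the 2 control arrays, for the 18 tested probes, with ZnO NPs in red, ZnSO4 in blue and control in grey. ZnO NPs replicate 1 (red circles) is the lowest array for 15 of 18 probes, and ZnSO4 replicate 3 (blue triangles) is the highest for 13 of 18.

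The fibrinogen chains were measured by 8 probes, none of which differed between groups by as much as 1.5-fold. In RefSeq's table, fga and fgb lie on 1 chromosome with 1 annotated gene between them and fgg lies farther along it. For the gamma chain, probe A_15_P439455 of fgg had 3866, 6542 and 8008 under ZnO NPs, 7097, 7824 and 8583 under ZnSO4, and 7476 and 7308 in control. ZnO NPs spread 2.07-fold between the lowest array and the highest, ZnSO4 1.21-fold and control 1.02-fold. ZnO NPs differed from control by a log2 fold change of -0.33 (SE 0.27, adjusted p = 0.467) and ZnSO4 by 0.08 (SE 0.27, adjusted p = 0.899, limma). The other fgg probes, A_15_P741241 and A_15_P755944, gave -0.32 and -0.28 for ZnO NPs and 0.11 and 0.10 for ZnSO4. Without ZnO NPs replicate 1, the 3 fgg values for ZnO NPs were -0.03, -0.03 and -0.01.

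For the beta chain, probe A_15_P101786 of fgb had 21558, 33975 and 39719 under ZnO NPs, 35238, 40225 and 40704 under ZnSO4, and 37260 and 34385 in control. The groups overlapped throughout, with ZnO NPs replicate 1 alone below the rest. Its log2 fold change was -0.22 (SE 0.23, adjusted p = 0.579, limma) for ZnO NPs against control, and that of A_15_P219251 was -0.18. The remaining fgb probe, A_15_P333449, was the steadiest, with 2732, 3525 and 3400 under ZnO NPs, 2974, 3168 and 3197 under ZnSO4, and 3164 and 2951 in control, and a log2 fold change of 0.07 (95% interval -0.21 to 0.34) for ZnO NPs.

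For the alpha chain, probe A_15_P104121 of fga had 4882, 7660 and 9040 under ZnO NPs, 7494, 8619 and 9414 under ZnSO4, and 6410 and 7074 in control. Probe A_15_P117894 had 6037, 8667 and 10324 under ZnO NPs, 8358, 9129 and 9992 under ZnSO4, and 7273 and 7776 in control. On both, every ZnSO4 array was above both control arrays and the ZnO NPs arrays fell on either side of them. The log2 fold changes for ZnSO4 against control were 0.33 (SE 0.24, adjusted p = 0.484) and 0.28 (SE 0.21, adjusted p = 0.489), and for ZnO NPs against control they were 0.05 and 0.11 (limma). With slide side fitted as a block, the ZnSO4 values of all 8 fibrinogen probes were negative: -0.23 and -0.23 for fga, -0.44, -0.37 and -0.11 for fgb, and -0.59, -0.63 and -0.50 for fgg. These values rest on the difference between ZnO NPs replicate 3 and replicates 1 and 2, and replicate 1 was lowest for all 8 probes.

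The 8 fibrinogen probes moved together across arrays, with a median pairwise r of 0.87 over 28 pairs of probes. The range was 0.58 to 0.99, and 0.81 to 0.99 over the 21 pairs without A_15_P333449. Probes of c3a.1 shared much of this pattern. Its probe A_15_P131726 had an r of 0.97 with fga A_15_P104121, 0.87 with fgb A_15_P101786 and 0.55 with A_15_P333449. ZnO NPs replicate 1 was the lowest array for all of these probes, and the r values are a description only. Relative to the control mean, the median log2 value of the 8 probes was -0.74, -0.03 and 0.16 on ZnO NPs replicates 1, 2 and 3, 0.03, 0.13 and 0.21 on the ZnSO4 arrays, and 0.05 and -0.05 on the control arrays. By this median, ZnO NPs replicate 1 was at 0.60 times the control mean, and the other 2 ZnO NPs arrays at 0.98 and 1.12 times. The probes differed in how far that replicate fell. It read 3866 against 7476 and 7308 in control for fgg A_15_P439455. For fgb A_15_P333449 it read 2732 against 3164 and 2951.

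ZnO NPs replicate 1 was the lowest of the 8 arrays for 15 of the 18 probes (83.3%), against 6.4% of all tested probes. These were all 8 fibrinogen probes, all 4 of c3a.1, both of cfb and A_15_P445755 of c3a.2. ZnSO4 replicate 3 was the highest array for 13 of 18 probes (72.2%), against 8.85% of all tested probes. Without ZnO NPs replicate 1 the median log2 fold change of ZnO NPs against ZnSO4 was -0.10, and without ZnSO4 replicate 3 it was -0.30. With slide side fitted as a block it was -0.02.

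The antimicrobial peptide gene leap2, made in the liver and gut of vertebrates, had 264, 273 and 238 under ZnO NPs, 297, 244 and 275 under ZnSO4, and 300 and 282 in control on its single probe, A_15_P625256. All ZnO NPs arrays were below both control arrays, while ZnSO4 overlapped both groups. Its fold change was, on the log2 scale, -0.17 (95% interval -0.42 to 0.07; adjusted p = 0.325) for ZnO NPs and -0.10 (95% interval -0.35 to 0.14; adjusted p = 0.619) for ZnSO4 against control (limma). It shared little of the array pattern of the other members, with an r between -0.62 and 0.44 to each of the other 17 probes.

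For saa, a major acute phase gene of many vertebrates, the signal was too low to measure. Probe A_15_P120326 read 2.37 to 5.23 and probe A_15_P659411 read 4.09 to 9.93 over the 8 arrays, and neither was well above background on any array. The lowest scaled signal of any probe marked well above background ran from 5.53 to 12.1 over the arrays. It is not a cut-off, since A_15_P659411 read 7.42 on ZnO NPs replicate 1, the array with 5.53, and was not so marked. No fold is given for saa in any group.

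Read against the wider systems, other lists shared the members' array pattern only in part. ZnO NPs replicate 1 was lowest for 27.6% of other complement, 62.9% of other clotting and 48.5% of other acute phase probes. Control replicate 1 was lowest for 48.3%, 25.7% and 42.4% of them. Over all tested probes, ZnO NPs replicate 1 was lowest for 6.4% and control replicate 1 for 30.9%. Control replicate 1 was also the highest array for 23.2% of all tested probes. Of 29 further listed complement genes, 16 were tested with 29 probes and none changed. By the looser rule (fold of 1.5, p under 0.05 before adjustment), 1 of 29 probes was higher under ZnO NPs and 4 of 29 under ZnSO4. Over all tested probes, 3.07% and 2.39% passed this rule in either direction. c6.2, which encodes C6 of the terminal complement pathway, was 1 of the genes involved. Its probe A_15_P344195 had 78.6, 92.2 and 98.2 under ZnO NPs, 74.6, 81.4 and 72.2 under ZnSO4, and 49.7 and 60.4 in control. Every zinc array was above both control arrays, and the log2 fold change was 0.70 under ZnO NPs (SE 0.13, adjusted p = 0.0911) and 0.47 under ZnSO4 (SE 0.13, adjusted p = 0.174). The other 2 c6.2 probes, A_15_P628085 and A_15_P640358, gave 0.51 and 0.43 under ZnO NPs, and 0.62 (adjusted p = 0.126) and 0.63 (adjusted p = 0.133) under ZnSO4 (limma).

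c3a.3, the C3 gene next to c3a.2, held the other probes of that count. On A_15_P654399 it had 2745, 3557 and 4128 under ZnO NPs, 4400, 4429 and 5753 under ZnSO4, and 2532 and 3434 in control, so that all ZnSO4 arrays lay above the rest. The log2 fold change for ZnSO4 against control was 0.71 (SE 0.21, adjusted p = 0.192) on this probe and 0.70 (SE 0.26, adjusted p = 0.234, limma) on A_15_P131736, beside 0.22 and 0.22 under ZnO NPs. These are 2 of the 3 c3a.3 probes. The median over the 29 complement probes was 0.14 under ZnO NPs and 0.20 under ZnSO4.

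Among the clotting factors other than fibrinogen, 15 of 22 listed genes were tested with 35 probes, and none changed. By the looser rule, 2 of 35 probes were lower under ZnO NPs and 1 of 35 under ZnSO4, beside 3.07% and 2.39% of all tested probes in either direction. f7, coagulation factor VII, had 241, 343 and 371 under ZnO NPs, 423, 409 and 427 under ZnSO4, and 465 and 478 in control on A_15_P422040, a log2 fold change of -0.59 under ZnO NPs (SE 0.17, adjusted p = 0.12) and of -0.17 under ZnSO4 (limma). All ZnO NPs arrays were lowest on this probe, the only 1 of 3 f7 probes past the looser rule. f7l, a factor VII-like gene, was lower in both exposures on A_15_P648366, with log2 fold changes of -0.80 under ZnO NPs and -0.79 under ZnSO4, while its other 2 probes gave values between -0.11 and 0.23. The median of the 35 probes was -0.13 under ZnO NPs and 0.09 under ZnSO4.

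The remaining acute phase and secreted liver proteins, 15 genes with 33 probes, had no probe past the looser rule, with medians of -0.25 under ZnO NPs and -0.03 under ZnSO4. Of the signals and factors upstream of the acute phase response, 17 genes with 41 probes were tested and none changed. Under ZnO NPs, 3 of 41 probes passed the looser rule, beside 3.07% of all tested probes. il6st, the signalling chain of the interleukin 6 receptor, was at 0.71 (adjusted p = 0.139, limma). tnfb, a tumour necrosis factor gene, was at -0.71 (adjusted p = 0.105, limma) on 1 of its 2 probes. socs3a, a feedback inhibitor of Stat3, was at -0.71 (adjusted p = 0.153, limma). socs3a, at -0.82, was the only one under ZnSO4, where 2.39% of all tested probes passed. For socs3a the ZnO NPs arrays read 2079, 1955 and 2386, the ZnSO4 arrays 1815, 1866 and 2278, and the control arrays 2529 and 4795. The control arrays differed more from each other than control replicate 1 did from any zinc array.

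**Figure D4:**
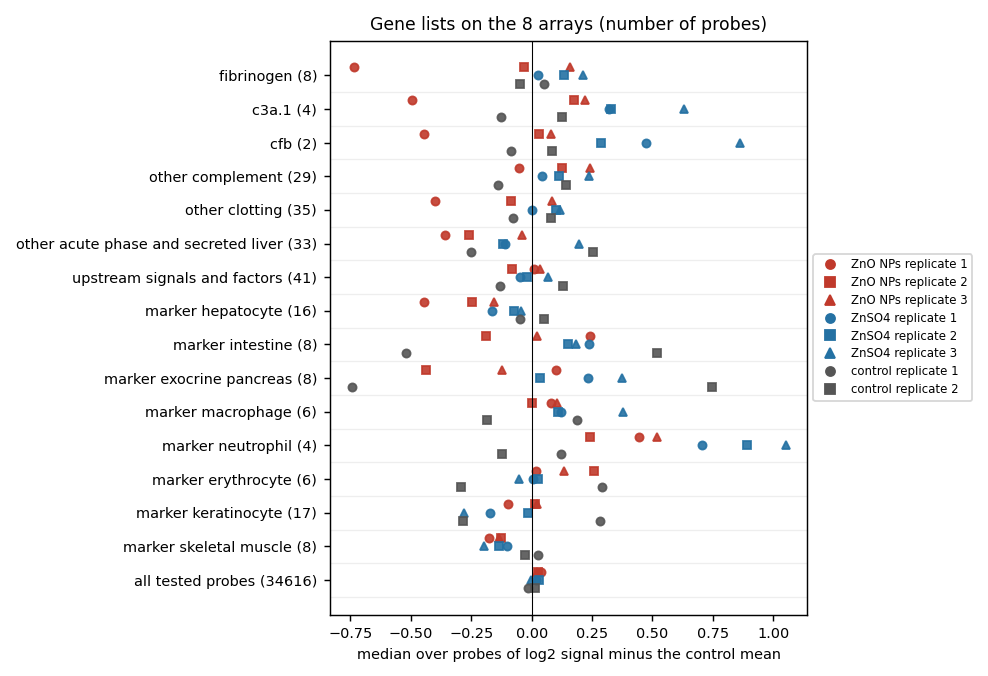
Median over the probes of each gene list of log2 signal minus the control mean, on each of the 8 arrays, with ZnO NPs in red, ZnSO4 in blue and control in grey, and the number of probes in parentheses. ZnO NPs replicate 1 lies lowest for fibrinogen (-0.74), c3a.1 (-0.50), cfb (-0.45) and the hepatocyte markers (-0.45), and near 0 for all tested probes (0.04).

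Hepatocyte markers were present, with 16 probes of 9 of 10 listed genes well above background on all 8 arrays, and their summed scaled signal ran from 300530 to 408200 under ZnO NPs, from 412160 to 437020 under ZnSO4 and from 422570 to 476360 in control. The sum is weighted towards the brightest probes. cp, ambp, serpina1 and serpina1l also stand in the list of other acute phase and secreted liver proteins, so the lists are not independent. The hepatocyte marker median was -0.45, -0.25 and -0.15 on ZnO NPs replicates 1, 2 and 3, -0.16, -0.07 and -0.04 on the ZnSO4 arrays, and -0.05 and 0.05 on the control arrays. ZnO NPs replicate 1 was the lowest array for 9 of the 16 hepatocyte marker probes (56.2%), against 6.4% of all tested probes. Control replicate 1 was lowest for 4 (25%, against 30.9% of all tested probes) and ZnO NPs replicate 2 for 3 (18.8%, against 12.5%). The 9 were probes of ambp, apobb.1, cp, serpina1 and serpina1l, and no probe of fabp10a, gc, hpda or ttr was among them. For ZnSO4 against control the hepatocyte markers were mixed, with 7 of 16 probes positive. All 3 probes of cp, which encodes the copper-carrying plasma protein ceruloplasmin, were above both control arrays on every ZnSO4 array (log2 fold changes of 0.43, 0.28 and 0.50). The apobb.1 probe was above them too (0.19). The 3 probes of ambp (-0.23, -0.23 and -0.15), both of serpina1 (-0.14 and -0.12) and that of serpina1l (-0.13) were below them. These ambp, serpina1 and serpina1l probes were also below both control arrays on every ZnO NPs array (-0.50 to -0.43, adjusted p = 0.139 to 0.217, limma). Cp probe A_15_P461881 was above them there (0.33). Over all tested probes, 39.1% under ZnSO4 and 41.9% under ZnO NPs did not overlap control. The part of the hepatocyte markers in the members' values was not tested.

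No neutrophil marker probe changed, though all 4 tested had positive log2 fold changes against control in both exposures. The medians were 0.40 under ZnO NPs and 0.88 under ZnSO4. Control replicate 2 was the lowest of the 8 arrays for all 4, against 11.3% of all tested probes. Of 3 listed genes, lyz (lysozyme) and mpx (myeloperoxidase) were tested with 4 probes, and their summed signal ran from 3960 to 5139 under ZnO NPs, from 5611 to 6650 under ZnSO4 and from 3734 to 4845 in control. The looser rule was passed by 1 of 4 probes under ZnO NPs and 3 of 4 under ZnSO4, all higher. The 3 were all of mpx. Over all tested probes, 3.07% and 2.39% passed in either direction. mpx probe A_15_P132151 had 52.7, 45.5 and 54.4 under ZnO NPs, 60.5, 68.9 and 85.5 under ZnSO4, and 30.7 and 28.6 in control, the 3 groups not overlapping. Its log2 fold change was 0.78 under ZnO NPs (SE 0.15, adjusted p = 0.0979) and 1.26 under ZnSO4 (SE 0.15, adjusted p = 0.0695, limma). The macrophage sum, over 6 probes of 3 genes, was 3881 to 4837 under ZnO NPs, 4071 to 5425 under ZnSO4 and 4001 to 5410 in control, so that the groups overlapped. The part of neutrophil or macrophage RNA in the cfb and C3 values was not tested.

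Outside the members, the named genes whose pattern over 8 arrays was most like the mean of the fibrinogen probes were fuca2 (r = 0.98), zgc:171775 (0.97), itih3a.1 (0.97), qsox1 (0.97) and f2 (0.96). Of the 23101 named probes tested, those of the members and any lacking a value on an array were left out of this search. f2 encodes prothrombin, whose active form cleaves fibrinogen, and itih3a.1 an inter-alpha-trypsin inhibitor heavy chain. The 8 arrays share 3 groups, and ZnO NPs replicate 1 is the lowest of them for all fibrinogen probes.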

How the data were processed

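The deposited files hold the intensity of each of 62976 spots per array, which the authors obtained with Agilent Feature Extraction (version 10.10 in the submitters' processing notes, 10.10.1.1 per the file headers) after subtracting background. The authors also deposited log2 values, shifted per array by its 75th percentile and centred on the median of each probe, which served as an alternative. Here control and outlier spots were dropped, log2 processed signals were averaged over the spots of 1 probe, and the 75th percentile over zebrafish spots was subtracted per array. A probe entered the test (34616 of 43603) if all arrays of some group had it well above background, with limma 3.58.1 in R 4.3.3. The share well above background ran from 77.5% to 85.8% of probes per array, no spot was saturated, and the number of arrays limits the precision. Names came from RefSeq accessions matched to RefSeq genes of GRCz12tu (25854 probes named). The files name another genome build, so no coordinates are given. The script was tested on simulated data.

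Members and gene lists were chosen with earlier results of these data known. All probes of the members are named. Of each other list, every gene with a changed probe and otherwise the 2 highest and 2 lowest log2 fold changes at an unadjusted p under 0.05 and 1.5-fold in each treatment are named, and the other c6.2 probes were added after their values were seen. Genes like saa were not sought, since saa was not above background. Only 2 control arrays were used here, although the methods state a triplicate. Their statistics name a one-way ANOVA, an alternative here. Other alternatives changed normalization, background correction (normexp, offset 50), filters, arrays and blocks. Replicate numbers were not taken as pairs.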

Additional observations from a re-analysis of the deposited data

How the results depend on the processing

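Every probe's value was computed again under 18 settings. Of 969 such values, 909 kept the sign of the log2 fold change, 60 changed it, none of them past 1.5-fold at an unadjusted p under 0.05, and 2 became called, both for c3a.2 A_15_P131731 without control replicate 2. The number of members past 1.5-fold at an unadjusted p under 0.05 was 1 for ZnO NPs against control and became 0 under normexp, with only probes well above background on all arrays, with the 2 groups alone in the fit, with the replicate block, with slide side fitted as a block, and under the one-way ANOVA with either LSD or Tukey comparisons. For ZnSO4 against control it was 2, and became 1 with no filter on dim probes, with only probes above background on all arrays, with the 2 groups alone and with the replicate block, and 0 with the side block and under either ANOVA. For ZnO NPs against ZnSO4 it was 2, and 0 with the side block and under either ANOVA. Leaving out 1 array gave 0 to 2, 0 to 3 and 0 to 6 for these comparisons, the 3 without ZnSO4 replicate 2 and the 6 without ZnO NPs replicate 3. The number called was 0 in each comparison, and leaving out 1 array gave 0 to 1, 0 to 1 and 0. A 1.5-fold limit with no test gave 1, 2 and 2. The replicate block moved the ZnSO4 median log2 fold change to 0.13 and the side block to -0.07. The cause of these shifts was not tested, apart from the loss of the dim probe A_15_P131731 under the stricter filter. With group means removed, same-numbered arrays correlated between -0.07 and 0.15 in 7 pairs, 1 of them over 0.1. Of 8 arrays, 5 correlated best with their own number. The 2 control arrays then mirror each other, so this cannot settle whether the numbers mark pairs. They were not taken as pairs in the main fit, and the replicate block is the alternative. Where 1 control array is left out, the spread of the remaining one is taken from the other groups. The 2 control arrays limit every comparison against control.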
